A study of Mus musculus with 6 samples.

Results

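The genes described here are 10 members of MHC class I antigen presentation: B2m, H2-K1, H2-D1, Tap1, Tap2, Tapbp, Nlrc5, Psmb8, Psmb9 and Psmb10. They were chosen by symbol as a pathway, and all 10 were found among the 43432 genes of the table and passed the filter on low values. The RNA was that of macrophages sorted out of the mammary glands of female FVB/N mice with the MMTV-PyMT transgene, a polyomavirus middle T oncogene under a mammary tumour virus promoter. Glands were taken from mice aged 8 weeks (3 libraries) and 11 weeks (3 libraries), to compare macrophages of early and late tumours. All mice carried the transgene, so neither group is free of it, and no other treatment is named. The sort took cells positive for CD45, MHC class II and CD14. The labels number the samples at each age without saying that each came from its own mouse, so the p-values refer to the spread among these libraries, part of which may be technical.

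MHC class I molecules carry peptides from inside the cell to its surface, where CD8 T cells read them. A heavy chain, such as the products of H2-K1 and H2-D1, pairs with beta-2 microglobulin, the product of B2m. Peptides are cut by the proteasome, moved into the endoplasmic reticulum by the transporter made of Tap1 and Tap2, and loaded with the help of tapasin, the product of Tapbp. Interferons switch on the catalytic subunits Psmb8, Psmb9 and Psmb10, which take the place of Psmb5, Psmb6 and Psmb7 and form the immunoproteasome. Nlrc5 is the transactivator of class I genes, as its relative Ciita is for class II genes.

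The libraries held 38784434 to 75004876 reads, recovered from the deposited values, and 17385 to 19722 genes with a read. The library with the fewest reads was 8-week replicate 2. Mitochondrial ribosomal RNA took 35.2% to 51.8% of the counts. All 12 matched macrophage genes (Csf1r, Cd68 and others) were detected in every library, and their summed level was 791867.4 to 986268 normalized counts at 8 weeks and 834696.9 to 937793.1 at 11 weeks. Summed markers of mammary epithelium and tumour (13 genes) went from 8097.9 to 11868.5 at 8 weeks to 24466.3 to 46860.4 at 11 weeks. Of these genes 11 had a positive and 2 a negative log2 difference. The ages overlapped for the defining genes Epcam (138 to 361 and 274 to 1512 reads) and Krt8 (50 to 114 and 61 to 524 reads). Those of neutrophils (8 genes) were at 1714.2 to 4237.9 and 4407.6 to 6507.1, with at most 1 read of the defining gene Ly6g in any library. Fibroblast markers (7 genes) were at 687.6 to 1080.6 and 1347.7 to 3055.2, and endothelial ones (6 genes) at 404.6 to 543.1 and 674 to 1174.6. Dendritic cell markers (10 genes) were at 11423.6 to 13903.9 and 10044.5 to 11019.1. Gene by gene these lists were less uniform. Log2 differences were positive for 3 and negative for 3 endothelial genes, and positive for 4 and negative for 6 dendritic cell genes. All 7 fibroblast genes and 6 of 7 tested neutrophil genes had positive ones. Summed markers of T, B and NK cells overlapped between the ages, although Cd3e, which defines T cells, had 6 to 85 reads at 8 weeks and 185 to 343 at 11 weeks. These cells also make class I molecules, and the part of their RNA in the values below was not tested. Fewer cells of a type and less RNA per cell cannot be told apart in these sorted bulk samples.

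The stretches in front of the RefSeq starts of H2-K1 and H2-D1 are closely related in sequence. All stretches shown here are those of the C57BL/6 reference, and those of the FVB/N mice sampled were not examined. Of the 10 members 8 have an entry in the RefSeq promoter table (GRCm38.p6); Tap2 and Nlrc5 have none. Windows of 250 bases before the RefSeq start were searched on both strands for 6 motifs. For H2-D1, Psmb8, Psmb9 and Tapbp this window lies inside the deposited span of the gene. The first was GAANNGAAA, a short spelling of the interferon-stimulated response element, and the next a longer spelling with 1 more A before the gap. The others were the gamma-activated site (TTCNNNGAA), the NF-kB consensus, the core of the X2 box (TGACG) and the Y box (CCAAT), of which the X2 and Y boxes stand before class I and class II genes. Capitals mark every match. The windows of H2-K1 (chr17:34000348-34000597, minus strand), H2-D1 (chr17:35262844-35263093, plus strand) and B2m (chr2:122147437-122147686, plus strand) are shown because these genes gave by far the highest levels:
H2-K1: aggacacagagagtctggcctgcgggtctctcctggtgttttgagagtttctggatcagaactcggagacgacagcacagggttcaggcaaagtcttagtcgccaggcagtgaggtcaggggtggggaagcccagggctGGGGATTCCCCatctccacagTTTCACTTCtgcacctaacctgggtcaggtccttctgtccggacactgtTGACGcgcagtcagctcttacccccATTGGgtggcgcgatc
H2-D1: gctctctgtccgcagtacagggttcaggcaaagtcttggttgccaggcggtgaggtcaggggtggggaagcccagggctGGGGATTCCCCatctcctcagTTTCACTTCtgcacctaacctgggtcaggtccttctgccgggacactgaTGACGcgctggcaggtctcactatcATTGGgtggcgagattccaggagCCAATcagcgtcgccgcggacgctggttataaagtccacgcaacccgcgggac
B2m: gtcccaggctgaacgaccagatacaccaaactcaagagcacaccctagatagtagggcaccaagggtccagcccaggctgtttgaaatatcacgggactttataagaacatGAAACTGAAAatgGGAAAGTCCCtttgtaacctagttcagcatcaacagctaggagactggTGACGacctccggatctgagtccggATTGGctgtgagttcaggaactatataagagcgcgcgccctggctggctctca

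H2-K1 and H2-D1 aligned over 177 bases with 161 identical, or 91%, and no gap. Both hold, in the same order toward the start, the NF-kB consensus (2 matches that overlap each other), the short response element, the X2 core and the Y box, and H2-D1 has a further Y box. B2m holds the long response element, the NF-kB consensus, the X2 core and the Y box. The X2 core together with the Y box was found in 5 of the 8 members' windows and in 6.12% of the 32841 windows of the table. These 5 windows are not separate sequences. Those of Tap1 and Psmb9 hold the same X2 core and Y box, read from either side, and those of H2-K1 and H2-D1 are near copies. Read toward Tap1, the Y box comes before the X2 core, the reverse of the order in H2-K1, H2-D1 and B2m. Whether the members differ from all windows was not tested. Singly, the short response element was in 6.31% of all windows, the long one in 2.98%, the gamma-activated site in 7.02%, the NF-kB consensus in 7.25%, the X2 core in 17.8% and the Y box in 33.9%. The gamma-activated site was matched in Psmb8 alone among the members, and Psmb10 held none of the 6 motifs. H2-K1 has 2 entries, of which the first is shown. These matches describe letters and are not binding sites.

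Psmb9, Tap1, Psmb8 and Tap2 lie together in 34.3 kb of chromosome 17, from 34181988 to 34216321 (GRCm38). Psmb9 runs to the left and Tap1 to the right from a common stretch of 225 bases between their RefSeq starts (chr17:34187331-34187555, plus strand, read toward Tap1), shown because both genes were highest and lowest in the same libraries:
Tap1 and Psmb9: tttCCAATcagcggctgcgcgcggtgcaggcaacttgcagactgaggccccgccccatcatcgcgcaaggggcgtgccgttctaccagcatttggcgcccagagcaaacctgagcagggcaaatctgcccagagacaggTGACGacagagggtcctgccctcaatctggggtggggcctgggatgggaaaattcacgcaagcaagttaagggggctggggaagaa

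It holds 1 Y box and 1 X2 core and no match to the other 4 motifs. Relative to their own log2 means, Tap1 and Psmb9 had opposite signs in 11-week replicate 2 (0.30 and -0.08) and replicate 3 (-0.45 and 0.24). Psmb8 and H2-D1 were also highest in 8-week replicate 2, as Tap1 and Psmb9 were. A link between the common stretch and these values was not tested. In the deposited spans Psmb9 and Tap1 overlap by 212 bases on opposite strands. No source used here says whether counting used strand, so reads from the overlap cannot be told apart. Psmb8 begins 495 bases beyond Tap1, and Tap2 begins 2072 bases beyond Psmb8. H2-K1 (33996017 to 34000333), Tapbp (33915899 to 33929288) and H2-D1 (35262730 to 35267499) are on the same chromosome, B2m is on chromosome 2 (122147686 to 122153083), and Nlrc5 (94472763 to 94527272) and Psmb10 (105935728 to 105938392) are on chromosome 8. All are annotated as protein-coding, and each value is 1 total per gene. B2m lies inside the span of Patl2 on the other strand, and Tapbp shares part of its span with Zbtb22 on its own strand, but these neighbours reached at most 103.3 and 286.0 normalized counts.

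None of the 10 members was called as changed between 8 and 11 weeks. Limma, a linear model on log2(normalized count + 1) with age as its term, put the smallest adjusted p of a member at 0.766 (H2-K1, over all 21675 genes tested). It called 11 of all genes tested, or 0.0507%, at an adjusted p of 0.05. Unadjusted, 0 of 10 members had a p under 0.05, against 8.03% of all genes. The count of members called was also 0 with edgeR, which called 0.0646% of all genes, with limma-voom (0.12%), with DESeq2 (2.63%) and in the authors' deposited table (1.91%). In the authors' deposited table the members' log2 fold changes ran from -0.116 (Tap1) to 0.251 (Tap2). These are not the same measure as the limma differences. Some low genes had smaller deposited values than limma ones, such as Tap2 (0.251 against 0.58) and Socs1 (0.857 against 3.68). Values overlapped between the ages for all 10 members, while 11.9% of all genes tested had no overlap. Their log2 differences, 11 minus 8 weeks, ran from -0.05 to 0.58 with a median of 0.17, and 8 of 10 were positive. Over all genes tested the median was 0.05 and 52.8% were positive. Genes with a mean of at least 100, as all members had, gave a median of -0.02 and 48.3% positive. Whether the members differ from these sets was not tested.

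**Figure D1:**
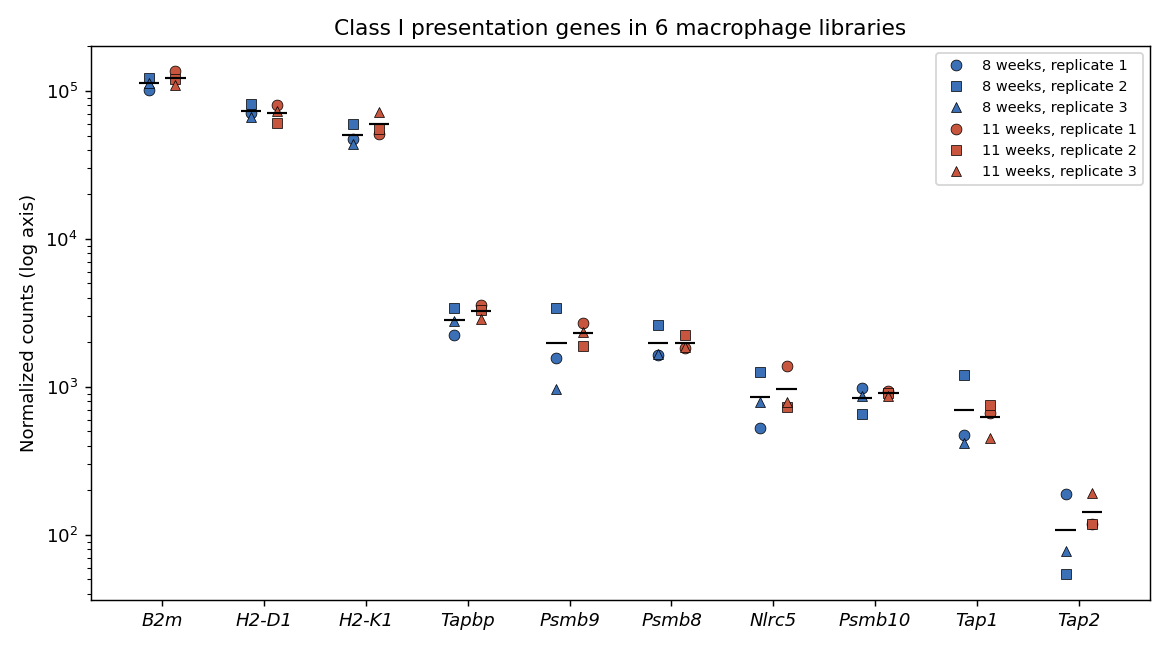
Normalized counts (log axis) of the 10 class I presentation genes in each library, with 8-week libraries in blue, 11-week libraries in red, marker shapes for the replicate numbers and a bar at the mean of each age. The ages overlap for every gene, and the highest library is 1.34 to 1.65 times the lowest for B2m, H2-D1, Psmb10, Psmb8, Tapbp and H2-K1, and 2.66 to 3.55 times for Nlrc5, Tap1, Tap2 and Psmb9.

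The 3 chains that make the class I molecule were the most abundant members and the ones with the narrowest intervals. B2m (ENSMUSG00000060802) stood at 101346.8, 122010.2 and 113799.9 normalized counts in 8-week replicates 1 to 3 and at 136249.7, 119838.1 and 110316.3 in 11-week replicates 1 to 3. The 11-week replicate 1 was the highest and the other 11-week values lay within the 8-week range. Its log2 difference was 0.12 ± 0.12 (SE; limma adjusted p = 0.823), with a 95% interval from -0.14 to 0.38, or a fold of 0.909 to 1.3. H2-K1 (ENSMUSG00000061232) was at 47621.3, 60119.8 and 43754.5 at 8 weeks and at 51102.9, 55418.4 and 72132.7 at 11 weeks. Of its 11-week libraries only replicate 3 exceeded the highest 8-week library, replicate 2. The log2 difference was 0.24 ± 0.16 (SE; limma adjusted p = 0.766; 95% interval -0.10 to 0.57). H2-D1 (ENSMUSG00000073411) was at 71284.4, 81727.6 and 67100.4 at 8 weeks and at 79809.2, 60493.1 and 72756.3 at 11 weeks, so that the highest value was at 8 weeks and the lowest at 11 weeks. Its log2 difference was -0.05 ± 0.14 (SE; limma adjusted p = 0.93; 95% interval -0.34 to 0.24). A change of 2-fold in either direction lies outside these 3 intervals.

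Levels of different genes can be set side by side only per length. Per kb of annotated exon (GENCODE M21, all exons of a gene joined, from 0.86 kb for B2m to 8.49 kb for Nlrc5), B2m was at 130681 ± 12098 normalized counts per kb at 8 weeks and 142017 ± 15254 at 11 weeks (SD, n = 3). H2-D1 was at 28449 ± 2921 and 27538 ± 3790, and H2-K1 at 17188 ± 2911 and 20269 ± 3781 (SD, n = 3). B2m lay above both heavy chains in every library (lowest value 117845 per kb), while the ranges of H2-D1 (lowest 23456) and H2-K1 (highest 24552) overlapped. FVB/N mice carry the q haplotype of the MHC and the GRCm38 reference is C57BL/6, of the b haplotype, so reads of the polymorphic heavy chains were placed on another strain's alleles. H2-K1 and H2-D1 also have near-identical relatives. Their levels are therefore uncertain, and the size of this was not tested. Below them came Tapbp at 775 ± 158 and 897 ± 103 per kb, followed by Psmb9, Psmb8 and Psmb10. Their ranges overlapped from each to the next, so this order is not fixed. Psmb9 was at 542 ± 349 and 633 ± 116 per kb, Psmb8 at 584 ± 162 and 584 ± 65.9, and Psmb10 at 491 ± 98 and 532 ± 24 (SD, n = 3). Tap1 was at 127 ± 80.1 and 114 ± 29.1 per kb and Nlrc5 at 101 ± 44.3 and 114 ± 43.2, also overlapping. Tap2 was the lowest, at 28.4 ± 19.2 and 37.7 ± 11.1 per kb (SD, n = 3). The order of the transporter subunits held in each library, since the highest Tap2 value was 50.6 per kb and the lowest Tap1 value 75.8. All orders between genes depend on the annotated lengths, since the transcripts present were not tested.

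The transporter genes varied more between libraries of one age than between the ages. Tap1 (ENSMUSG00000037321) was at 473.5, 1202.5 and 415.1 normalized counts at 8 weeks and at 671.2, 757.1 and 448.6 at 11 weeks. Replicate 2 of 8 weeks was above every 11-week library, and replicate 3 of 8 weeks was below all of them. The log2 difference was -0.02 ± 0.44 (SE; limma adjusted p = 0.992; 95% interval -0.95 to 0.92). Tap2 (ENSMUSG00000024339) was at 189.9, 54 and 77.7 at 8 weeks and at 118.6, 117.9 and 191.2 at 11 weeks, so 8-week replicate 2, where Tap1 was highest, was where Tap2 was lowest. That value rests on 39 reads, with an exact 95% Poisson interval of 27.7 to 53.3 reads, which covers counting error only. The 868 reads of Tap1 there had an interval of 811.2 to 927.7. For Tap2 the log2 difference was 0.58 ± 0.73 (SE; limma adjusted p = 0.839; 95% interval -0.97 to 2.13), so that a fold between 0.509 and 4.36 is within the interval. Tapbp, whose product bridges the transporter and the empty class I molecule (ENSMUSG00000024308), was at 2246.9, 3395.6 and 2794.6 at 8 weeks and at 3602.5, 3301.5 and 2860.4 at 11 weeks. Its lowest value was at 8 weeks and its highest at 11 weeks, with overlap between (log2 difference 0.22 ± 0.24, SE; limma adjusted p = 0.827).

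Nlrc5 (ENSMUSG00000074151), the transactivator, was at 525.2, 1267.6 and 790.9 normalized counts at 8 weeks and at 1394.9, 730.9 and 791.2 at 11 weeks. One library of each age, replicate 2 at 8 weeks and replicate 1 at 11 weeks, stood clearly above the other 4. The log2 difference was 0.20 ± 0.39 (SE; limma adjusted p = 0.899; 95% interval -0.62 to 1.03), and it changed sign without 8-week replicate 1 (-0.11) or 11-week replicate 1 (-0.09). In the library with the highest Nlrc5, 11-week replicate 1, B2m and Tapbp were also highest, while H2-K1 was below its mean over the libraries.

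Of the 3 immunoproteasome subunits 0 passed the test. Psmb8 (ENSMUSG00000024338) was at 1646, 2607.3 and 1667.2 normalized counts at 8 weeks and at 1838, 2232.9 and 1857.1 at 11 weeks (log2 difference 0.03 ± 0.27, SE; limma adjusted p = 0.981). The 11-week values all lay inside the 8-week range. Psmb9 (ENSMUSG00000096727) was at 1575.5, 3417.7 and 962.6 at 8 weeks and at 2723.5, 1877.1 and 2346.5 at 11 weeks (log2 difference 0.40 ± 0.37, SE; limma adjusted p = 0.815). Again the 11-week values lay inside the 8-week range, whose highest value was 3.55 times its lowest. The difference rested on single libraries, at 0.89 without 8-week replicate 2 (unadjusted p = 0.0177, limma adjusted p = 0.624) and -0.02 without 8-week replicate 3. Psmb10 (ENSMUSG00000031897) was at 986.1, 656.7 and 870.3 at 8 weeks and at 943.4, 915.3 and 862.8 at 11 weeks (log2 difference 0.13 ± 0.32, SE; limma adjusted p = 0.923). It went the other way from Psmb8 and Psmb9 in 8-week replicate 2, where it was lowest.

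**Figure D2:**
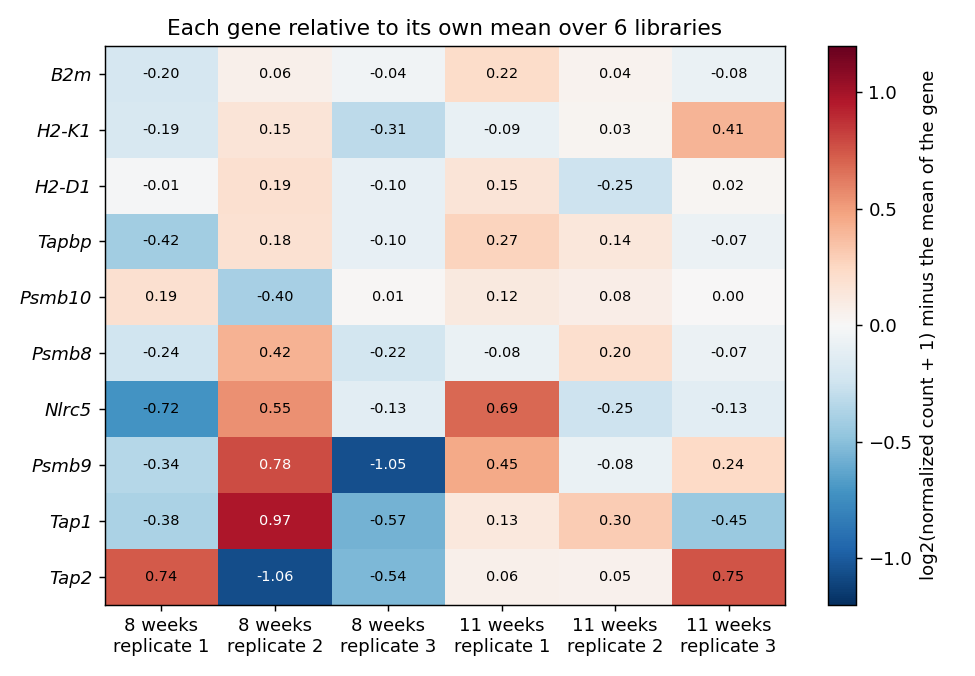
Each gene's log2(normalized count + 1) minus its own mean over the 6 libraries, with genes in rows, libraries in columns, red above and blue below the mean. In 8-week replicate 2 there are 8 of 10 genes above their mean, with Tap1 at 0.97 and Psmb9 at 0.78, while Tap2 is at -1.06 and Psmb10 at -0.40.

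Among the libraries, 8-week replicate 2 and 11-week replicate 1 each had 8 of 10 members above the gene's own mean, and 8-week replicate 3 had 1 and 8-week replicate 1 had 2. Centred on each gene, the members averaged 0.18 and 0.19 in the first of these libraries and -0.30 and -0.16 in the last, so the 8-week libraries held both high and low means. Tap1, Psmb9, Psmb8 and H2-D1 were highest in 8-week replicate 2, that is 4 of 10, where 17.2% of the 10727 genes with a mean of at least 100 were highest. The SD within an age, in log2, was 0.14 for B2m, 0.18 for H2-D1, 0.22 for Psmb10, 0.24 for Tapbp, 0.25 for H2-K1 and 0.29 for Psmb8, and 0.58 for Nlrc5, 0.65 for Tap1, 0.68 for Psmb9 and 0.71 for Tap2, beside a median of 0.44 over genes with a mean of at least 100. The part of depth in the values of 8-week replicate 2 was not tested. Outside the members, the genes whose centred profile lay nearest to the members' mean profile, out of 10717 candidates over 6 libraries, included Taf4b, Tspan3, Ltv1 and Akr1b3. Their root mean square distances were 0.0533, 0.0546, 0.0628 and 0.0634 in log2. Among the members B2m was nearest at 0.135 and Tap2 farthest at 0.694. The outside genes were picked for their nearness and the members were not, so these distances do not compare the members with other genes.

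Of the 3 constitutive subunits that these replace, 0 passed the test. In normalized counts, Psmb5 averaged 282 ± 81.4 at 8 and 234 ± 53.5 at 11 weeks, Psmb6 2815 ± 349 and 3514 ± 501, and Psmb7 1860 ± 261 and 1890 ± 582 (mean ± SD over 3 libraries; adjusted p from limma = 0.906, 0.786 and 0.993). Within each library, the log2 ratio of Psmb8 to Psmb5 was 2.91, 3.35 and 2.15 at 8 weeks and 2.63, 3.47 and 3.16 at 11 weeks. That of Psmb9 to Psmb6 was -0.63, 0.25 and -1.70 at 8 weeks and -0.11, -0.99 and -0.72 at 11 weeks. That of Psmb10 to Psmb7 was -1.10, -1.50 and -0.88 at 8 weeks and -0.80, -1.48 and -0.77 at 11 weeks. The ages overlapped in all 3 ratios, with differences of 0.28, 0.09 and 0.14 and two-sided exact permutation p of 0.6, 1 and 0.5 (0.9, 1 and 0.9 after adjustment over 3 ratios), where 3 against 3 libraries cannot give less than 0.1. The ratios are not per length and are read only between libraries. Per kb, Psmb8 was at 584 ± 162 at 8 weeks against 314 ± 90.5 for Psmb5, Psmb10 at 491 ± 98 against 544 ± 76.4 for Psmb7, and Psmb9 at 542 ± 349 against 1504 ± 186 for Psmb6 (SD, n = 3). The joined exons cover 3381 of the 3734 bases of the Psmb8 span and 3660 of 5777 for Psmb9. Per-kb levels of different genes therefore depend on the annotation, and the part of this was not tested.

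**Figure D3:**
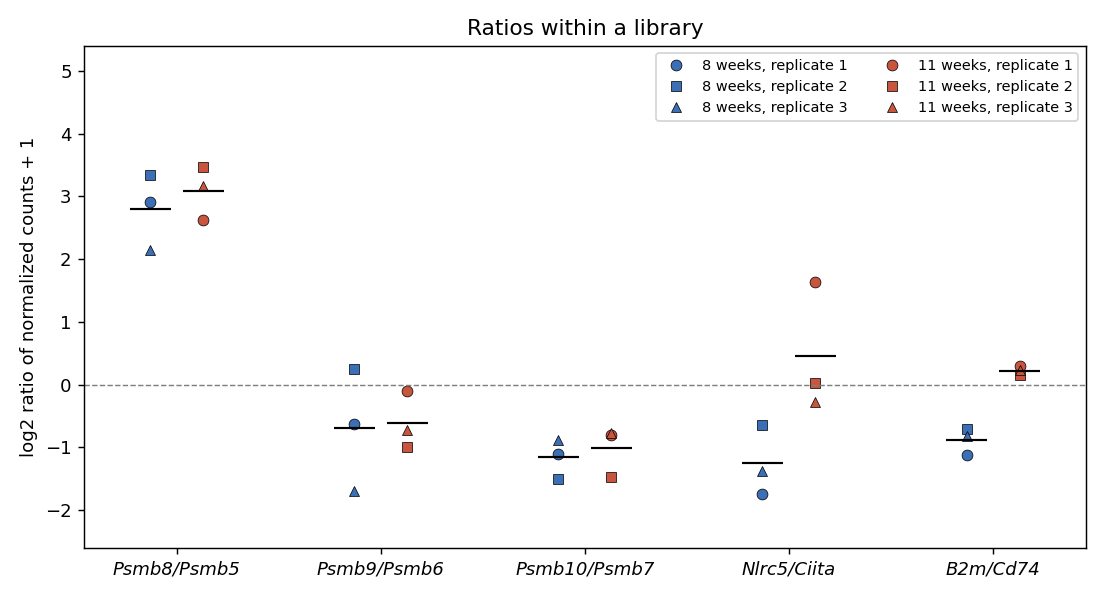
Log2 ratios of normalized counts + 1 within each library, not corrected for gene length, with the same colours and shapes for age and replicate and a bar at the mean of each age. The 3 ratios of immunoproteasome to constitutive subunits overlap between the ages, while Nlrc5 to Ciita and B2m to Cd74 do not.

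Of the shared core subunits with the assembly factor Pomp (12 genes), 0 passed the limma test and 0 had an unadjusted p under 0.05. In 5 of them, Psmb1, Psmb2, Psmb3, Psmb4 and Pomp, all 11-week values were above all 8-week values, where 6.81% of all genes tested had no overlap in that direction. Psmb3 and Psmb4, outside the naming rule, were chosen after seeing their values. Pomp was at 4252 ± 252 and 5570 ± 919 normalized counts, Psmb1 at 1200 ± 88.9 and 1749 ± 429, Psmb2 at 3034 ± 363 and 3718 ± 537 and Psma7 at 4089 ± 99 and 5032 ± 1478 (mean ± SD over 3 libraries; adjusted p from limma = 0.689, 0.693, 0.796 and 0.809). The median log2 difference of the 12 was 0.27. Of the 4 proteasome activators 0 passed. Psme1 and Psme2, which form the interferon-inducible cap, were at 5952 ± 928 and 736 ± 186 at 8 weeks and 6862 ± 305 and 1026 ± 365 at 11 weeks (mean ± SD over 3 libraries; adjusted p from limma = 0.812 and 0.802). Psme3, a nuclear cap, was at 3168 ± 642 and 4039 ± 209, without overlap, and Psme4 at 4707 ± 1692 and 3574 ± 323 (mean ± SD over 3 libraries; adjusted p from limma = 0.734 and 0.802).

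Peptide loading partners showed no call among 5 genes, and 1 had no overlap, higher at 11 weeks, as had 6.81% of all genes tested. Calr, which encodes the chaperone calreticulin, was at 16419 ± 683 and 18722 ± 520 normalized counts, without overlap, and Pdia3, the disulfide isomerase bound to tapasin, at 21198 ± 3418 and 17815 ± 6124 (mean ± SD over 3 libraries; adjusted p from limma = 0.799 and 0.794). Canx (calnexin) was at 17637 ± 1915 and 16998 ± 3630, Erap1, which trims peptides in the endoplasmic reticulum, at 1852 ± 669 and 1530 ± 281, and Tapbpl, a tapasin relative that edits peptides, at 372 ± 261 and 283 ± 173 (mean ± SD over 3 libraries; adjusted p from limma = 0.927, 0.844 and 0.955). Of 6 other trimming enzymes 0 passed, and Lnpep, Blmh, Thop1 and Tpp2, with the smallest p, had log2 differences of -0.28, -0.36, -0.52 and -0.18 (limma adjusted p = 0.784, 0.796, 0.831 and 0.833).

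Among the other class I and class I-like chains none was called with limma. Of 19 listed, 18 were tested, 0 passed with limma and 1 had an unadjusted p under 0.05, as had 8.03% of all genes tested. Of the 18, 15 had a negative log2 difference, with a median of -0.34. H2-M3, which presents formylated peptides, was at 2456.5, 2396.7 and 1996 normalized counts at 8 weeks and at 1758, 1712.7 and 1176.4 at 11 weeks (log2 difference -0.58 ± 0.27, SE; limma adjusted p = 0.616). All its 11-week values were below all 8-week values, as were those of H2-Q10, at 316 ± 153 and 137 ± 30.5 (mean ± SD over 3 libraries; adjusted p from limma = 0.658), where 5.12% of all genes tested had no overlap in that direction. Mr1, which presents vitamin B metabolites, was at 844 ± 54.5 and 623 ± 227, and Fcgrt, the heavy chain of the neonatal Fc receptor, at 6801 ± 436 and 9181 ± 2184 (mean ± SD over 3 libraries; adjusted p from limma = 0.789 and 0.658). The H2-Q and H2-T families hold near-identical copies, so reads of some of these genes cannot be assigned with certainty. Which of the listed genes this affects was not tested.

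Among 15 transcription factors of class I genes and of the interferon response, 0 passed with limma and 1 had an unadjusted p under 0.05. That was Irf1, an interferon-induced factor that binds the response element, at 3236.6, 3869.4 and 3048.3 normalized counts at 8 weeks and at 2261, 1682.5 and 2702.7 at 11 weeks (log2 difference -0.63 ± 0.25, SE; limma adjusted p = 0.533). Its ages did not overlap, where 5.12% of all genes tested had no overlap and were lower at 11 weeks. Rfx5, Rfxank and Nfyc, which bind the X and Y boxes, were at 231 ± 45.8, 50.9 ± 38.7 and 147 ± 51.6 at 8 weeks and at 354 ± 64.9, 102 ± 63.3 and 254 ± 73.8 at 11 weeks (mean ± SD over 3 libraries; adjusted p from limma = 0.797, 0.802 and 0.789). Of 10 interferon ligands, receptors and signalling genes 9 were tested, with 0 calls and 3 with an unadjusted p under 0.05. Of all genes tested 8.03% had such a p. Ifng had 0 reads in all 6 libraries, which allows up to 2.56 to 4.16 normalized counts (3 reads) in a library. Ifngr1, a chain of the interferon gamma receptor, was at 6691.7, 9642.2 and 6781.5 at 8 weeks and at 5718.3, 5556.6 and 3513 at 11 weeks, without overlap (log2 difference -0.66 ± 0.23, SE; limma adjusted p = 0.46). Ifnb1, which encodes interferon beta, was at 8, 0 and 0 at 8 weeks and at 36.8, 58.5 and 10 at 11 weeks (limma adjusted p = 0.531). Socs1, a feedback inhibitor of interferon signalling, was at 2.7, 0 and 7.7 at 8 weeks and at 34.9, 37.3 and 48 at 11 weeks (limma adjusted p = 0.492). Both are low, and neither overlapped between the ages, where 6.81% of all genes tested had no overlap and were higher at 11 weeks. Jak2 had a log2 difference of 0.14 ± 0.24 (SE; limma adjusted p = 0.887).

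Set beside class II genes, which were already known to be lower at 11 weeks when they were listed, the class I members had other values under the same contrast. Of 7 class II genes 2 fell, Cd74 by 0.98 and H2-Ab1 by 0.84 on the log2 scale (limma adjusted p = 0.00111 and 0.0127), all 7 log2 differences were negative, and their median was -0.87, against 0.17 for the 10 class I members. Ciita, at -1.51, and H2-DMb1, a chain of the class II peptide editor, did not pass (limma adjusted p = 0.147 and 0.151). DESeq2 on recovered reads called 5 of the 7, Cd74, H2-Ab1, Ciita, H2-DMa and H2-DMb1. The authors' deposited table has adjusted p of 0.002 for Ciita, 0.008 for H2-DMa and 0.001 for H2-Ab1, and lists Cd74 and H2-DMb1 at 0 after rounding. There were also 2 calls with limma-voom, TMM or upper-quartile scaling, each filter on low values and the replicate block. With limma, scaling to library totals left 0, and leaving out any 1 library left 0, or 1 without 11-week replicate 2. The log2 ratio of B2m to Cd74, the class II invariant chain, was -1.12, -0.71 and -0.82 at 8 weeks and 0.29, 0.15 and 0.23 at 11 weeks, a difference of 1.10 that ranged from 0.98 to 1.19 when any 1 library was left out. The log2 ratio of Nlrc5 to Ciita was -1.74, -0.65 and -1.38 at 8 weeks and 1.63, 0.03 and -0.27 at 11 weeks, a difference of 1.72 that was 1.14 without 11-week replicate 1. All 11-week libraries lay above all 8-week libraries in both ratios. These are descriptions with no test, since the class II genes were picked with their fall known, and class II protein was part of the sort.

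**Figure D4:**
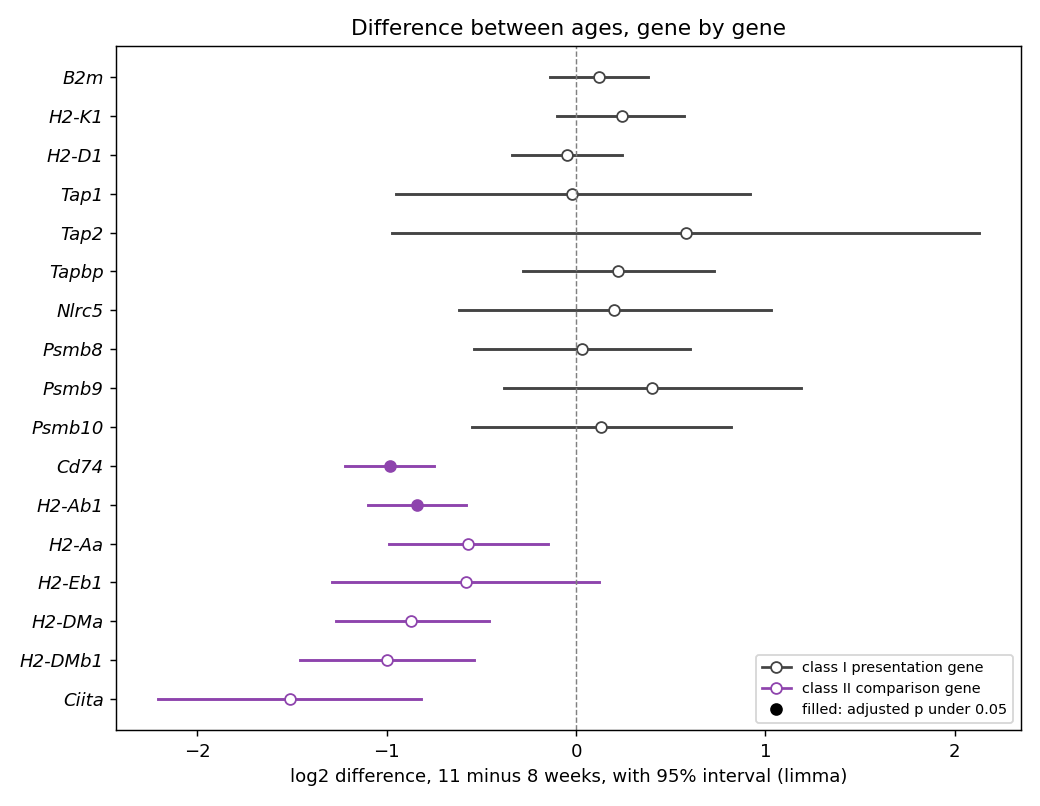
Log2 difference between 11 and 8 weeks with its 95% interval from limma for the 10 class I presentation genes (grey) and 7 class II comparison genes (purple), where a filled point marks an adjusted p under 0.05. All 10 class I intervals include 0, and the class II points lie between -1.51 and -0.57 with only Cd74 and H2-Ab1 filled.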

How the data were processed

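RNA of sorted mammary macrophages was sequenced in 6 libraries, 3 at 8 weeks and 3 at 11 weeks, with an amplification kit for small RNA amounts, per the labels' protocols. GRCm38, DESeq2 1.6 and STAR 2.4 appear in the submitters' processing notes, with no role given; the counter and the annotation used are not given. The deposited signal values, called normalized counts, equal whole reads over a library's size factor, rounded to 1 decimal, as the values themselves show. At least 99.848% of nonzero values were whole reads within 0.05 normalized counts. Beside these, the authors' deposited table lists log2 fold changes, linear fold ratios and p-values, raw and adjusted.

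Tests used limma (trend, robust) on log2(value + 1), with Benjamini-Hochberg adjustment over all genes whose mean at one age or the other reached 1. The added 1 understates changes of low genes. Columns were matched to samples by age and number, and no libraries were identical. Alternatives were edgeR, DESeq2 and limma-voom on recovered reads, scaling, filters, pseudocounts, a replicate block and leaving out each library. Ratios were tested by exact permutation, and the steps were tested on simulated data. The members and lists were chosen with earlier results of these data known. Named genes are all members, all constitutive subunits, activators and loading partners, up to 4 with the smallest p of each other list, and the 5 nearest profiles, of which 1 is not reported here. Promoter sequences are from RefSeq.

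Versions were scipy 1.17.1, numpy 2.4.6 and pandas 2.3.3 under Python 3.11.15, matplotlib 3.10.9 for figures, and DESeq2 1.42.0, edgeR 4.0.16 and limma 3.58.1 under R 4.3.3.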

Additional observations from a re-analysis of the deposited data

How the results depend on the processing

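No member was called under any of the 18 alternatives run, and 165 of 180 member values kept their sign. Values that changed sign were those of Tap1 with limma-voom (0.06) and upper-quartile scaling (0.02) and of Psmb8 with edgeR (-0.01) and library total scaling (-0.06). Leaving out 1 library gave ranges of -0.14 to 0.06 for H2-D1, -0.30 to 0.46 for Tap1, -0.11 to 0.53 for Nlrc5, -0.08 to 0.25 for Psmb8, -0.02 to 0.89 for Psmb9 and -0.03 to 0.26 for Psmb10. B2m (0.04 to 0.19), H2-K1 (0.09 to 0.37), Tapbp (0.07 to 0.37) and Tap2 (0.19 to 1.09) stayed positive under all alternatives run, but moved by over 1.5 times. Among the fits that left out 1 library, the lowest were without 11-week replicate 1 (B2m), 11-week replicate 3 (H2-K1), 8-week replicate 1 (Tapbp) and 8-week replicate 2 (Tap2). With library total scaling B2m was lower still, at 0.03. Without 1 library the ratio differences ranged from -0.04 to 0.56 (Psmb8/Psmb5), -0.42 to 0.56 (Psmb9/Psmb6) and -0.03 to 0.38 (Psmb10/Psmb7).

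Calls over all genes, 11 with limma, were 418 with DESeq2, 26 with limma-voom, 4 with library total scaling, 5 with a pseudocount of 8 and 45 with a replicate block. They were 0 to 8 without 1 library. Calls in the other pathway lists, 2 with limma, were 1 with edgeR, 5 with DESeq2, 0 with library total scaling, 1 with a pseudocount of 8 and 0 to 1 without 1 library. The replicate numbers only name samples: same-numbered libraries had correlations of deviations of -0.026, -0.004 and -0.024 over 21675 genes. No library correlated best with its own number.

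The cause of these changes was not tested. Tap2 had the fewest reads of the members, at 39 to 213, and the part of depth in its spread was not tested.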
